A study of Mus musculus with 5 samples.

Results

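In IL-2-activated mouse NKC, 1162 broad domains of histone H3 lysine 4 monomethylation (H3K4me1) were described, with the genes they cover and the Runx3 peaks they hold. The domains were built from the list of 34204 H3K4me1 intervals: intervals separated by under 1 kb were joined into 23008 domains, and those spanning at least 4 kb, 5.05% of the joined domains, were kept. The regions were thus chosen by their H3K4me1 intervals, and their width is given only as a description, whereas the positions of genes, Runx3 peaks and sequence motifs did not enter the choice. NKC were isolated from spleens of ICR mice by negative selection, with a sort for DX5+ cells in the methods of the study, and grown for 7 days in IL-2 at 1000 units/ml, after which the labels give all cells as NKp46+. No resting cells enter the comparisons below. ChIP-seq was done with a home-made polyclonal anti-Runx3 antibody (2 libraries), a monoclonal anti-H3K4me1 antibody (1 library) and non-immune rabbit serum, NIS, as control (2 libraries). The deposited lists give only where peaks lie on the mm9 genome, called against NIS, with reads joined where there were 2 libraries. They hold no peak heights and no values per library, so depth cannot be read from them, although the paper states its read numbers. How depth bears on the joined domains was not tested. No value has a replicate error, and the 95% intervals below cover counting error only.

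H3K4me1 is deposited on nucleosomes at enhancers and around promoters, and long runs of it are typical of loci where several enhancers lie next to each other. Runx3 is a transcription factor of cytotoxic lymphocytes that binds DNA through its Runt domain together with the partner Cbfb. IL-2 acts on NKC through a receptor containing the Il2rb and Il2rg chains, which signal through Jak1, Jak3 and Stat5.

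Sequences under Runx3 peaks are shown for the broad domains with the most Runx3 peaks. Each line gives 60 bases from mm9 around the RUNX motif closest to the centre of a Runx3 peak, read 5′ to 3′ on the strand of the motif, with the motif in capitals. The distance is that of the peak centre from the domain's lower coordinate. The domains are one close to Sik1, one in Eif2c2 and an intergenic one whose nearest protein-coding transcription start site (TSS) is that of Rplp1.
Sik1 domain, peak at 449 bp (chr17:31963834-31963893, plus strand): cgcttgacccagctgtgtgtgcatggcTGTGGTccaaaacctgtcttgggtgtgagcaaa
Sik1 domain, peak at 2670 bp (chr17:31966091-31966150, minus strand): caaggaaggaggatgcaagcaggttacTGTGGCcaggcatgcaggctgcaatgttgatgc
Sik1 domain, peak at 9385 bp (chr17:31972769-31972828, minus strand): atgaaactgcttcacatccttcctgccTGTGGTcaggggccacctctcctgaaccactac
Sik1 domain, peak at 14232 bp (chr17:31977583-31977642, plus strand): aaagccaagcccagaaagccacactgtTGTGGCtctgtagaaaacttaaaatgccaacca
Eif2c2 domain, peak at 532 bp (chr15:72977337-72977396, plus strand): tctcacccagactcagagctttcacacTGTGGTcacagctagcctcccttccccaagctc
Eif2c2 domain, peak at 2237 bp (chr15:72979000-72979059, minus strand): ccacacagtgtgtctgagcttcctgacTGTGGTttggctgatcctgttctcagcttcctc
Eif2c2 domain, peak at 3416 bp (chr15:72980266-72980325, minus strand): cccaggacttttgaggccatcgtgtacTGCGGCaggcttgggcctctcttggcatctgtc
Eif2c2 domain, peak at 16057 bp (chr15:72992750-72992809, plus strand): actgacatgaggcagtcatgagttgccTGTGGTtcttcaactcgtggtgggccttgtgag
Rplp1 domain, peak at 481 bp (chr9:61511946-61512005, minus strand): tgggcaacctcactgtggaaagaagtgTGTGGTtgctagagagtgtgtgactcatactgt
Rplp1 domain, peak at 2408 bp (chr9:61514043-61514102, minus strand): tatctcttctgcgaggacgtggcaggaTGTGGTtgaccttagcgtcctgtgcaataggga
Rplp1 domain, peak at 3764 bp (chr9:61515385-61515444, minus strand): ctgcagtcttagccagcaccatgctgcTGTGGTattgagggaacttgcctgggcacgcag
Rplp1 domain, peak at 4712 bp (chr9:61516354-61516413, plus strand): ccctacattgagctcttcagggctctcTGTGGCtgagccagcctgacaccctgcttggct
Up to 4 peaks are shown per domain, those with a RUNX motif closest to their centre, which leaves out 1 of the 5 peaks of the Sik1 domain and 1 of the 5 of the Eif2c2 domain. Of the 12 peaks shown, the motif closest to the centre was TGTGGT in 8. It was TGTGGC in 3 and TGCGGC in 1. These motifs lay 2 to 144 bp from the peak centre, and whether Runx3 binds at them was not tested.

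The broad domains had a median span of 5309.5 bp (25th to 75th percentile 4547.25 to 7013.25) and reached 28695 bp. Together they spanned 7.33 Mb, of which 82.9% lay inside intervals and the rest in the gaps between them, and they held 21.4% of all bases in H3K4me1 intervals. A domain was made of a median of 4 intervals (range 1 to 18). Breadth mostly came from joining, since 63 domains contained a single interval of 4 kb or more and 14 consisted of 1 interval. Just inside the threshold were domains of 4000 bp in Kif13b, 4004 bp upstream of Nav2 and 4005 bp in Setd4, and just outside it were domains of 3998 bp upstream of Bid, 3997 bp in Fam38a and 3995 bp upstream of Agfg2. By chromosome, broad domains ranged from 0.163 per Mb on chromosome 3 to 0.895 per Mb on chromosome 11. Chromosome X held none, with 46 joined domains, 51 intervals and 60 Runx3 peaks in all.

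Runx3 was present in most broad domains but not at a higher density than in domains of 1 to 4 kb. The centre of at least 1 Runx3 peak lay in 794 of the 1162 broad domains (68.3%, Wilson interval 65.6 to 70.9), against 17.1% of all joined domains, most of which are far narrower. The broad domains took in 1115 of the 11676 Runx3 centres (9.55%), at 152 per Mb of span (exact Poisson interval 143 to 161). Domains of 1 to 4 kb held 155 per Mb (149 to 162) and those under 1 kb held 88.6 per Mb (82.3 to 95.3). The ratio of broad domains to domains of 1 to 4 kb was 0.979, with an exact interval of 0.912 to 1.05 that includes equality, and the ratio to domains under 1 kb was 1.72 (1.56 to 1.89). Against all narrower domains together the ratio was 1.14 (1.07 to 1.23) per Mb of span. That ratio was 1.06 (0.974 to 1.15) when only bases and centres inside intervals were counted, and 0.868 (0.814 to 0.926) when an overlap of 1 bp with the edge of a domain was enough.

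The number of Runx3 peaks per domain rose with span while their density did not. Of the broad domains, 368 held no Runx3 centre, 542 held 1, 196 held 2, 45 held 3, 9 held 4 and 2 held 5. The share with Runx3 went from 59.3% (54.9 to 63.6) of the 484 domains of 4 to 5 kb to 89.4% (77.4 to 95.4) of the 47 domains of 12 kb or more. Density went the other way, from 167 per Mb (150 to 185) to 117 per Mb (94.0 to 144), and the intervals of these end classes do not overlap. Domains of intermediate span lay between 151 and 152 per Mb. Where a domain held several Runx3 peaks, neighbouring centres were a median of 2277 bp apart (321 pairs), and 28 pairs were closer than 1 kb.

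**Figure D1:**
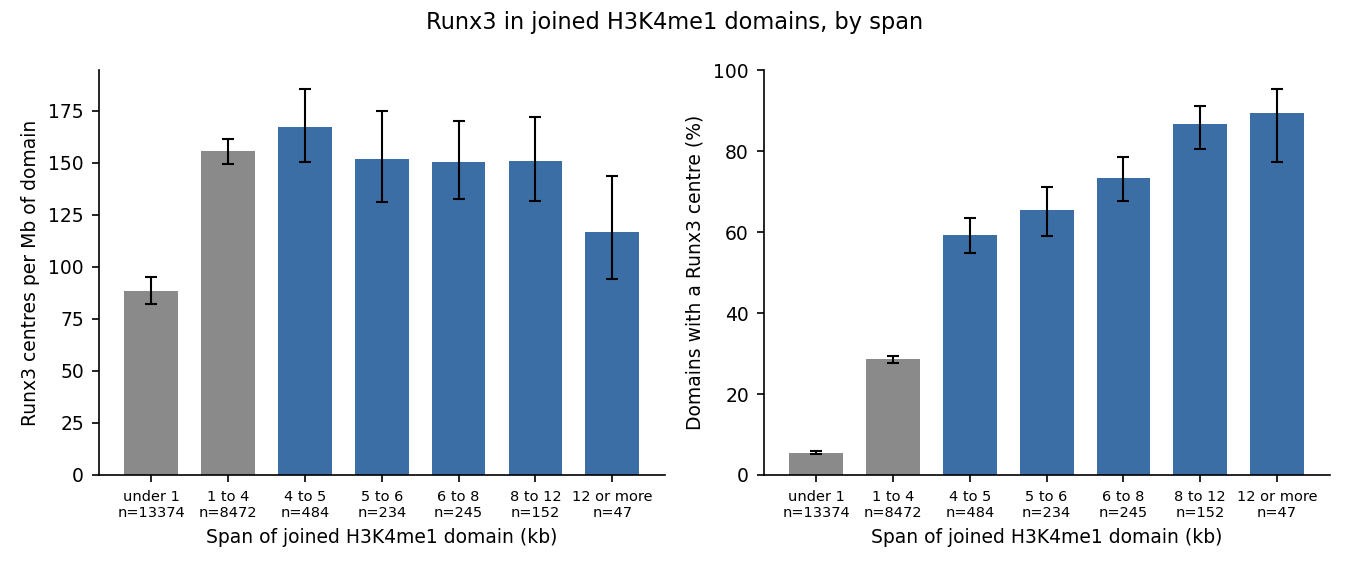
Runx3 centres per Mb (left, exact Poisson 95% intervals) and percent of domains with at least 1 Runx3 centre (right, Wilson 95% intervals), by span of the joined H3K4me1 domain in kb; blue bars are the broad domains, grey bars the narrower ones, and n is the number of domains. Density lies between 151 and 167 per Mb from 4 to 12 kb and is 117 per Mb above, while the share with Runx3 rises from 59.3% to 89.4%.

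Within the broad domains Runx3 was denser in the gaps than in the H3K4me1 intervals themselves. The 3989 internal gaps had a median width of 215 bp and made up 17.1% of the span, yet held 377 of the Runx3 centres (33.8%, Wilson interval 31.1 to 36.6), 1 each in 9.45% of the gaps. The density was 301 per Mb in gaps (272 to 333), 121 per Mb in intervals (113 to 131) and 39.9 per Mb in the unmarked 2 kb on either side of the domains (34.2 to 46.4). Gaps exceeded intervals 2.48-fold (exact interval 2.18 to 2.81), and 2.52-fold (2.21 to 2.87) when only peaks at least 1 kb from a TSS were counted. The higher density in gaps was not particular to broad domains. Domains of 1 to 4 kb also held fewer Runx3 centres per Mb inside intervals, 130, than over their whole span, 155. For broad domains these values were 121 and 152. Per Mb, short gaps were the most densely occupied, with 418 below 200 bp and 425 from 200 to 400 bp, against 173 (130 to 227) from 800 to 1000 bp. Per gap, the shortest were the least often occupied. The 1898 gaps below 200 bp held 61 centres, the 755 of 200 to 400 bp held 93 and the 343 of 800 to 1000 bp held 53. A gap means only that MACS called no interval there, and the Runx3 peak centred in a gap, with a median width of 770 bp, reached at least 1 marked interval in 359 of the 377 cases (95.2%) and 2 or more in 221.

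**Figure D2:**
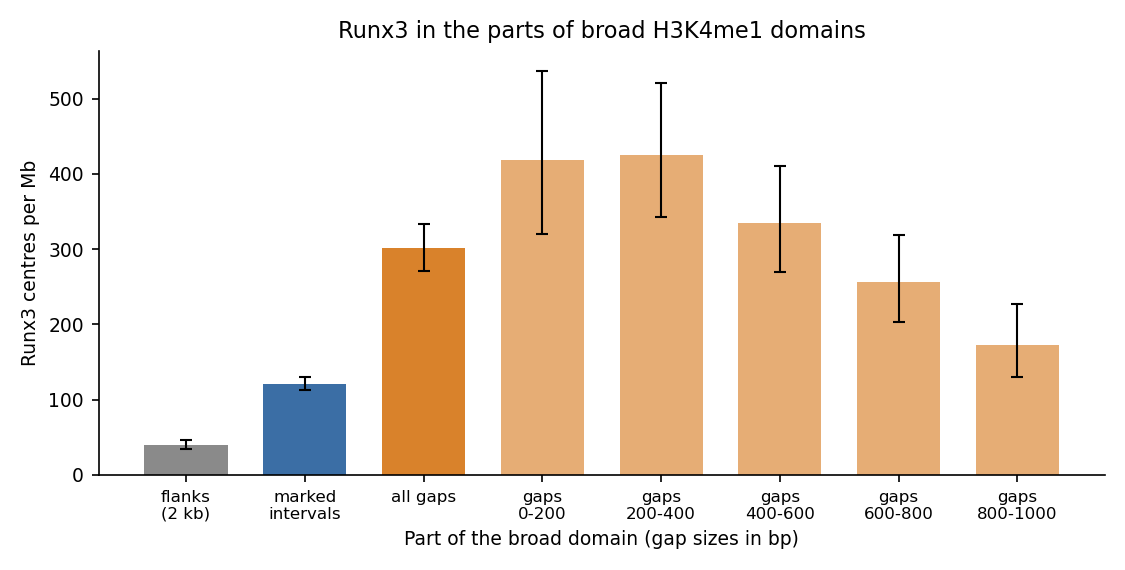
Runx3 centres per Mb in the unmarked 2 kb flanks, the marked intervals and the internal gaps of broad domains, with the gaps also split by width in bp; bars are exact Poisson 95% intervals. Density is 39.9 in flanks, 121 in intervals and 301 in gaps, and falls from 425 to 173 per Mb between gaps of 200 to 400 bp and gaps of 800 to 1000 bp.

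The inner part of the domains held more Runx3 than the ends. The inner 50% of the span contained 694 centres and the outer 25% at both ends together 421, a ratio of 1.65 (1.46 to 1.87). Gaps lie only inside a domain by construction, and with the span cut into 10 equal bins the outermost bins had 4.78% and 4.34% of their bases in gaps against 18.7 to 22.0% in the others. The difference remained inside intervals, where it was smaller. In the 1062 domains of 3 or more intervals, the inner intervals held 126 centres per Mb (114 to 139) and the first and last intervals 106 per Mb (93.1 to 119), a ratio of 1.20 (1.02 to 1.41).

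**Figure D3:**
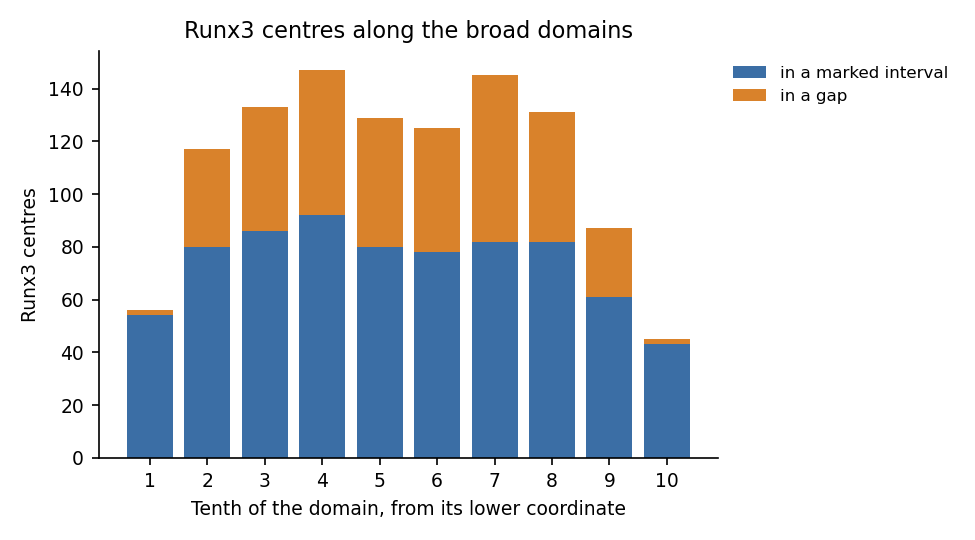
Number of Runx3 centres in each of 10 equal bins of the span of the broad domains, from the lower to the higher coordinate, split into centres in marked intervals (blue) and in gaps (orange). The first and last bins hold 56 and 45 centres and the fourth holds 147.

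The 10 widest domains all lay over protein-coding genes, downstream of the gene's first TSS, and each held Runx3. Those in Lasp1, Myh9, Zmiz1, Pstpip1, Pxn, Sept9 and Hmha1 did overlap the TSS of some annotated transcript. The Hmha1 domain also reached over Polr2e. The widest, 28695 bp on chromosome 11 from 97665130 to 97693824, began 4816 bp downstream of the TSS of Lasp1, an actin-binding scaffold protein, and held 3 Runx3 centres, 2 of them in gaps. The domain in Myh9, the heavy chain of non-muscle myosin IIA, spanned 27793 bp in 18 intervals (chromosome 15, 77626869 to 77654661) and held 4 centres. That in Zmiz1, a co-regulator of transcription factors, spanned 22917 bp (chromosome 14, 26332791 to 26355707) and also held 4. Rin3, Pstpip1, Pxn and Hmha1, whose products act on small GTPases, the cytoskeleton or focal adhesions, held 2 each. Sept9, a cytoskeletal septin, held 3, and Ell, an elongation factor of RNA polymerase II, and Rapgef1, an exchange factor for Rap1, held 1 each. At 0.0479 to 0.175 centres per kb, occupancy of these long domains varied among neighbours of similar width.

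**Figure D4:**
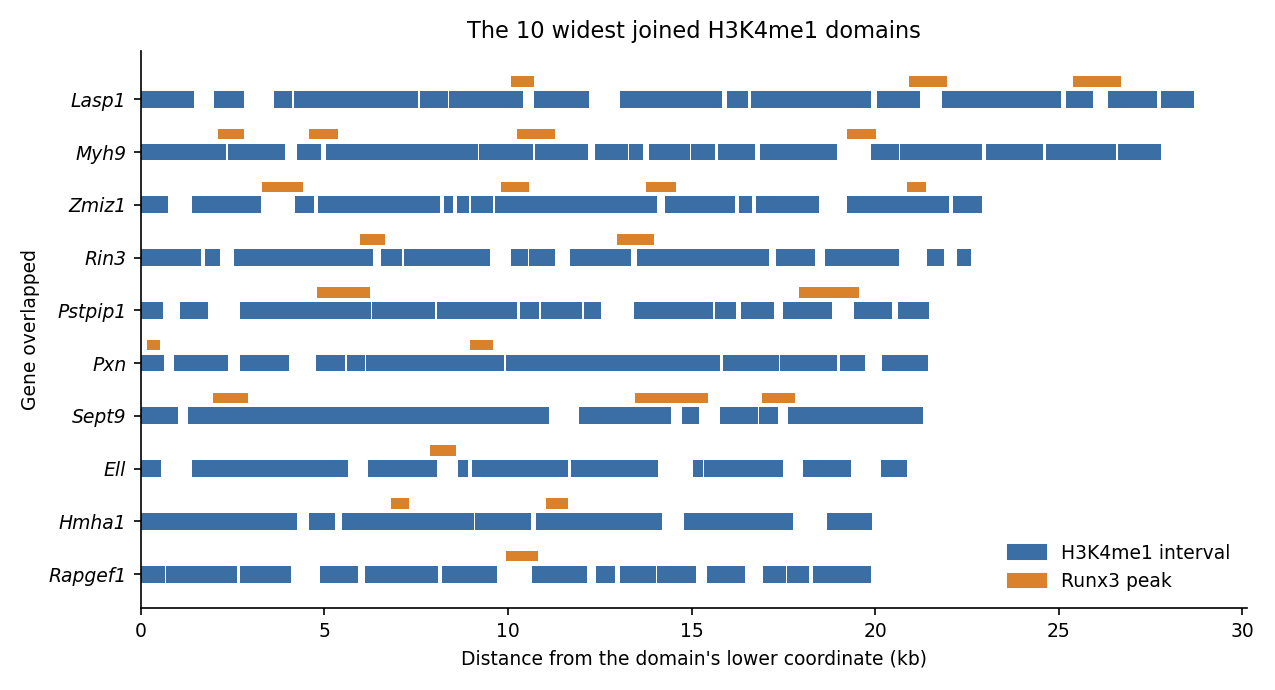
The 10 widest joined H3K4me1 domains, each on its own row named by the gene it overlaps, with H3K4me1 intervals in blue and Runx3 peaks in orange above them, against distance in kb from the domain's lower coordinate. Spans run from 28695 bp in Lasp1 to 19884 bp in Rapgef1, and the number of Runx3 peaks centred in them from 1 to 4.

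The domains with the most Runx3 peaks overlapped with the widest at Zmiz1 and Myh9. The domain close to Sik1, a salt-inducible kinase, held 5 centres in 15574 bp (chromosome 17, 31963412 to 31978985) and ended 13752 bp from its TSS, on the downstream side. The domain in Eif2c2, which encodes Argonaute 2, held 5 in 18471 bp (chromosome 15, 72976838 to 72995308). In the Sik1 domain every centre lay in an interval, and in Eif2c2 1 of the 5 lay in a gap. The most densely bound of the leading domains was the intergenic one on chromosome 9 (61511639 to 61517748), with 4 centres in 6110 bp, or 0.655 per kb, at 244597 bp from the TSS of Rplp1. Fli1, an ETS family transcription factor, had 4 centres in a domain of 9139 bp inside the gene (chromosome 9, 32308172 to 32317310), 31664 bp from its TSS. Apart from those in Zmiz1 and Myh9, the remaining domains with 4 centres lay in Irak2, a kinase of interleukin-1 and Toll-like receptor signalling, and, outside protein-coding genes, nearest to Zfp36l2, Tomm20, Klf14 and Snx9. Those nearest to Tomm20 and Klf14 were 87561 and 112089 bp from the TSS, so the gene names only locate them.

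Some of the wide domains held no Runx3 centre. The widest domain with no Runx3 centre spanned 18956 bp in Sept9 (chromosome 11, 117196105 to 117215060), and the nearest centre lay only 561 bp beyond its edge. A domain of 14050 bp upstream of Smndc1 likewise had a centre 847 bp away. The domain in Il2rb, the signalling chain shared by the IL-2 and IL-15 receptors, spanned 13582 bp (chromosome 15, 78305492 to 78319073) with no Runx3 centre closer than 4919 bp. In Ccdc88c, domains of 12335 and 12316 bp were 13245 and 30843 bp from the nearest centre. Among all 368 domains without Runx3 the median distance to a Runx3 centre was 9518 bp, and 191 (51.9%) had one within 10 kb. These domains were narrower than those with Runx3 (median 4870 against 5686.5 bp), had a similar share of their span marked (81.1% against 83.6%) and overlapped a TSS in 18.2% (14.6 to 22.5) against 23.0% (20.3 to 26.1).

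Broad domains lay mostly in the bodies of genes. Of the 1162, 895 (77.0%) overlapped a protein-coding gene and 757 (65.1%) lay whole within 1 such gene, and 74.0% of their bases were in protein-coding genes against 62.4% for narrower domains and 37.5% for the chromosomes. The midpoint of an overlapping domain lay a median of 21982 bp downstream of the gene's TSS. Any annotated TSS was overlapped by 250 domains (21.5%, Wilson interval 19.2 to 24.0), against 8.65% of all joined domains, but wider domains cover more bases. Per Mb, the broad domains held 9.14 TSSs of protein-coding genes (7.09 to 11.6) and narrower domains 26.5 (24.5 to 28.6), and 62 broad domains overlapped one. Runx3 density was 148 per Mb (131 to 167) in domains over a TSS. It was 196 per Mb (157 to 242) in the 77 domains more than 50 kb from any TSS. The intervals overlap, which does not show equal densities, and the ratio was not computed.

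Many broad domains had another one nearby. The median distance to the nearest other broad domain was 36677 bp, and 627 (54.0%) had another within 50 kb. By the GREAT rule, in which a gene's regulatory region reaches to the neighbouring genes' regions or up to 1000 kb, 1477 protein-coding genes (6.65% of 22206) had at least 1. Counting a gene with 5 kb on either side gave 894 genes, 4.03%. Prex1, an exchange factor for Rac, led with 10 domains by GREAT, 7 of them within 5 kb of the gene, and 9 of these 10 were shared with its neighbour Sulf2, which also had 10. Chsy1, a chondroitin synthase, and its neighbour Gm10974 had 8 each, 7 of them shared.

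Id2, an inhibitor of E proteins required for NK cell development, had 9 broad domains by GREAT, and none of them within 5 kb of the gene. They lay 111405 to 331865 bp upstream of its TSS, spanned 4023 to 9637 bp and held 13 Runx3 centres, with 8 of the 9 holding at least 1. The widest of them, on chromosome 12 from 25932884 to 25942520, held 3. Runx3 itself had 8 domains by GREAT, 4 of them within 5 kb of the gene and the narrowest inside Clic4, 118509 bp downstream. The 8 spanned 4153 to 11535 bp, 3 upstream and 5 downstream of the Runx3 TSS, with 7 Runx3 centres in 4 of them. Domains of 11535 and 11354 bp, with their nearer edges 40677 and 13642 bp upstream of the TSS, held 2 centres each, whereas the domain of 10376 bp that began 6023 bp downstream held none. Its paralogue Runx1 had 3 domains over or within 5 kb of the gene, and the one closest to the TSS, 2406 bp downstream, spanned 6289 bp and held 3 centres. Runx2 had 1 of 4095 bp with none.

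Among gene lists chosen for lymphocytes, broad domains were counted at more of the regulators than of the effector and receptor genes that define NKC. The lists were chosen with earlier results of these data known, so these counts are a description and not a test. Counting genes with 5 kb on either side, against the 4.03% of all protein-coding genes, a broad domain was found at 18 of 34 lymphocyte transcription factors, 8 of 19 proximal receptor signalling genes, 10 of 24 genes of IL-2 and related cytokine signalling and 4 of 23 genes of chemokines, trafficking and adhesion. It was found at 1 of 22 NK cell receptors and 1 of 24 cytotoxic effectors, close to the share of all genes. By the GREAT rule, against 6.65% of all protein-coding genes, the counts were 19 transcription factors, 10 proximal signalling genes, 10 cytokine signalling genes, 6 trafficking genes, 2 receptors and 2 effectors. A joined domain of some width was found at 17 of the receptor genes (77.3%), 21 of the effector genes (87.5%) and 32 of the transcription factors (94.1%), against 39.8% of all protein-coding genes. Perforin (Prf1) and Gzmb, the enzyme granzyme B, had widest domains of 1256 and 1503 bp, the receptor Klrb1c 3367 bp, and Ncr1, a defining NKC receptor, had none. The widest domains of the genes in both lists had medians of 848 and 1706.5 bp, against 4140 bp for the transcription factors. Gene length also differed between these lists, not always in the order of the counts. The median gene length was 69.2 kb for transcription factors, 29.4 kb for cytokine signalling genes and 25.3 kb for proximal signalling genes. It was 14.7 kb for receptors, 11.6 kb for trafficking genes and 8.17 kb for effectors. Over all protein-coding genes the share with a broad domain went from 2.01% below 10 kb to 7.39% at 100 kb or more. The share for the transcription factors was 52.9%, and the part of gene length in the differences between lists was not tested.

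Of the transcription factors, Ikzf1 (Ikaros) had the widest domain, 14707 bp from 28756 bp downstream of its TSS (chromosome 11, 11613762 to 11628468), with 1 Runx3 centre, and 2 further domains with 0 and 1. Runx3, Fli1 and Tcf7 followed, the last with 8956 bp and 1 centre. Junb and Nfil3, a factor required for NK cell development, had 1 domain each, of 4333 and 5899 bp, with 2 Runx3 centres each. Tbx21 (T-bet), Ets1 and Irf1 had domains of 4185, 4400 and 4695 bp with none. In all, the 30 broad domains of this list held 26 Runx3 centres, and 14 of its 18 genes with a broad domain had at least 1. Over all 1162 broad domains the mean was 0.960 centres per domain, and 68.3% of domains, counted by domain and not by gene, held at least 1.

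In the IL-2 pathway, broad domains lay at the receptor chain Il2rb, the kinase Jak1 and some of the feedback inhibitors and survival genes. The inhibitor Socs1 had a domain of 11417 bp that began 6721 bp downstream of its TSS and held 2 Runx3 centres, both in gaps. Cish, another inhibitor of Stat5 signalling, had 9697 bp with 1 centre, and the kinase Pim1 7147 bp with 1 centre. The Socs3 domain of 5224 bp held none. The survival genes Bcl2 and Bcl2l1 had 4 and 3 broad domains with 2 centres each. Il2ra, Jak3, Stat5a and Stat5b had no broad domain, their widest joined domains spanning 2262, 1069, 1477 and 2538 bp, and Il2rg, on chromosome X, had no joined domain. The survival gene Mcl1 and Myc also had no broad domain, with 2885 and 861 bp at their widest. The inhibitor Socs2 and the receptor chain Il15ra had no joined domain.

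In proximal signalling, Inpp5d, the SHIP1 phosphatase, had 4 broad domains with 1 Runx3 centre in all, Fyn 3 with 1, and Ubash3b, Pik3cd and Plcg2 2 each with 3, 2 and 0. Zap70 and Vav1 had 1 each, of 6268 bp with 1 centre and 6739 bp with none. Within 5 kb of the gene, the only NK cell receptor with a broad domain was Cd244 (7722 bp, 1 centre), and the only cytotoxic effector was Fasl, the ligand of Fas, whose domain of 6818 bp lay 3088 bp upstream of its TSS and held 1 centre in a gap. By GREAT, the receptor Crtam and the effector Gzmb had 2 broad domains each, farther than 5 kb from the gene. Among trafficking genes, the integrins Itgae, Itgb2 and Itgb7 had domains of 4152, 6467 and 4620 bp with 2, 1 and 1 centres. The chemokine receptor Ccr7 had 4216 bp with none, and 37127 bp to the nearest.

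Lists for other cells and for housekeeping were too short for a count of 0 to be set apart from the 4.03% of all protein-coding genes. Within 5 kb of the gene, a broad domain was found at 0 of 14 T cell markers, 0 of 12 B cell markers, 0 of 9 erythroid markers, 0 of 16 genes of non-haematopoietic tissues and 0 of 14 housekeeping genes. The 1 myeloid or dendritic marker of 14 was Cd68, through a domain of 4040 bp that also covered part of Eif4a1. By GREAT, against 6.65%, the counts were 2 of 14 housekeeping genes (Rplp0 and Ywhaz), 1 of 14 T cell markers (Cd5), 1 of 14 myeloid or dendritic markers (Emr1) and 0 in the other lists. A joined domain of some width was found at 9 of the T cell markers (64.3%), 6 of the B cell markers (50%), 7 of the myeloid or dendritic markers (50%), 8 of the housekeeping genes (57.1%), 5 of the non-haematopoietic genes (31.2%) and 2 of the erythroid markers (22.2%), against 39.8% of all protein-coding genes.

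**Figure D5:**
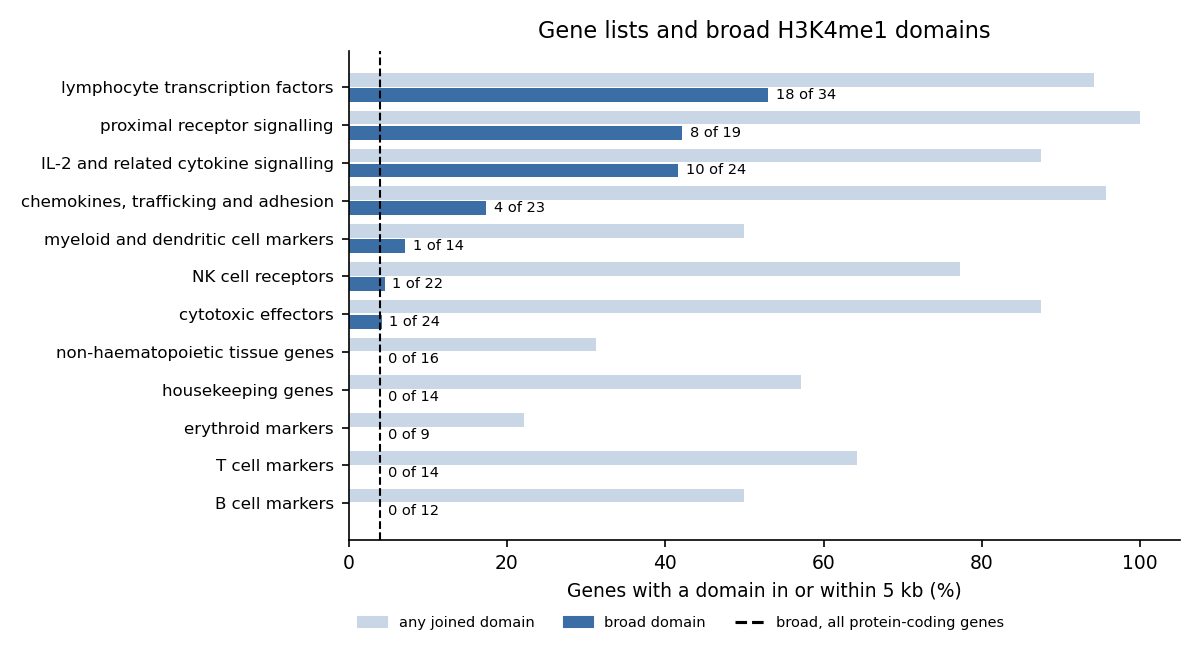
Percent of the genes in each list with a broad domain (dark bars, with counts) or any joined H3K4me1 domain (light bars) in the gene or within 5 kb; the dashed line is the 4.03% of all protein-coding genes with a broad domain. Lymphocyte transcription factors reach 18 of 34, while NK cell receptors and cytotoxic effectors stand at 1 of 22 and 1 of 24.

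The sequence under Runx3 peaks in broad domains was compared with that under other Runx3 peaks, using the central 200 bp of each. A RUNX motif, counted on either strand as TGTGGT or the variant TGTGGC, or as TGCGGT or the variant TGCGGC, was found in 73.4% of the 1115 peaks (Wilson interval 70.7 to 75.9), against 77% of all Runx3 peaks and 35.6% (35.0 to 36.2) of 23695 windows of 200 bp in broad-domain intervals away from Runx3. The share was 6.58 percentage points lower than in the 2518 peaks in domains of 1 to 4 kb (79.9%, Newcombe interval of the difference -9.65 to -3.60). Over whole peaks the shares were 96.1% (94.7 to 97.0) and 97.0% (96.3 to 97.6), and the peaks in broad domains were wider, with medians of 765 and 723 bp. A STAT motif, TTCNNNGAA, which reads the same on both strands, occurred in 9.51% of peaks in broad domains against 7.07% in domains of 1 to 4 kb, a difference of 2.44 points (0.526 to 4.52), and against 6.69% of all Runx3 peaks. ETS motifs, read on either strand as AGGAAA or the variant AGGAAG, or as CGGAAA or the variant CGGAAG, were at 61.1% and 60.9%, against 58.8% of all Runx3 peaks. AP-1 motifs (TGACTCA, whose reverse complement is the other form, TGAGTCA) were at 15.1% and 14.4%, against 12.6%, and the T-box motif AGGTGTGA on either strand at 2.51% and 2.66%, against 2.3%. The intervals of these 3 differences from domains of 1 to 4 kb include 0. Among peaks at least 1 kb from a TSS, AP-1 motifs were at 15.4% in broad domains and 15.3% over all such Runx3 peaks. RUNX motifs were there at 73.6% and 79.8%, and ETS motifs at 61.7% and 58.0%. STAT motifs were at 9.82% and 7.38%, and the T-box motif at 2.55% and 2.75%. STAT and ETS words can overlap, as both may contain GGAA.

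The gaps differed from the intervals in sequence as well. GC content was 51.2% in the intervals, 46.2% in the gaps, 48.0% in gaps with a Runx3 centre and 48.6% in the flanks. Runx3 peaks centred in gaps contained an ETS motif in 67.1% (62.2 to 71.7) and those centred in intervals in 58.0% (54.4 to 61.5). RUNX motifs were at 72.7% and 73.7%, with overlapping intervals.

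Broad domains next to microRNA genes were also counted, in a comparison chosen after seeing the data. Of 1568 annotated microRNA genes, 25 (1.59%) had a broad domain over them or within 5 kb. The share was 4.03% of all protein-coding genes, which are longer, and 2.01% of those under 10 kb. A joined domain of some width was found at 258 microRNA genes (16.5%), against 39.8% of protein-coding genes. The 25 with a broad domain include Mir22, Mir26a-2 and Mir92b, at 3637, 4330 and 1358 bp from the nearest one, and a microRNA gene inside the wide domain of Zmiz1.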

How the data were processed

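ChIP-seq peak lists of IL-2-activated splenic NKC were analysed. Reads were aligned by the authors to mm9 (ELAND, unique hits), libraries of an antibody were joined, and MACS peaks were called relative to NIS after down-scaling of the bigger set. The values deposited are peak starts and ends in bp, without scores or counts, so no test over samples was possible, and starts were taken as counted from 0 and are given from 1. The H3K4me1 and Runx3 lists were compared with GENCODE M1 genes and the mm9 sequence. A Runx3 peak was counted where its centre lay. Genes over 3 Mb (2 models, a filter chosen after seeing the data) were left out, leaving 22206. The GREAT regions ran 5 kb upstream and 1 kb downstream, extended by up to 1000 kb, using the domain's midpoint. Shares have Wilson and Newcombe intervals, densities exact Poisson intervals and ratios exact conditional binomial intervals, all at 95% and of counting error only, since peaks are not replicates.

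The members and gene lists were chosen with earlier results of these data known. Genes and domains named are the 10 widest domains, the 10 with the most Runx3 centres, the 5 widest without Runx3, the genes with most domains by GREAT (5, extended to ties), 3 domains on each side of the threshold and list genes, led by the 4 widest of each list. Further list genes, Inpp5d, Runx1, Runx2, Prf1, Gzmb, Klrb1c, Ncr1, Crtam, Cd5, Emr1, Rplp0 and Ywhaz among them, were chosen after their values were seen, as were the comparison of inner with end intervals, the splits by gene length and Runx3 reach, and microRNA genes. Zfp683 and Syk, from the lists, were not matched in the annotation used. Repeat content was not computed, as the genome sequence used does not mark repeats. Alternatives were other joining distances, minimum spans, overlap rules, gene rules, TSS sets and motif windows, autosomes only and peaks far from a TSS. The steps were tested on simulated data. Tools were python 3.11.15, numpy 2.4.6, scipy 1.17.1, pysam 0.24.0, samtools 1.23.1 and matplotlib 3.10.9.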

Additional observations from a re-analysis of the deposited data

How the results depend on the processing

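No paired analysis was possible because the lists carry no values per library. The Runx3 list was called on joined reads, so no Runx3 library could be left out. H3K4me1 had 1 labelled library, so there was no replicate of it to leave out. The number of broad domains and of their genes by GREAT rests on the threshold: 699 domains and 963 genes when joining gaps under 500 bp, 1953 and 2391 under 2 kb, 63 and 115 without joining, 2120 and 2415 at 3 kb and 678 and 920 at 5 kb, with 894 genes by the gene with 5 kb on either side and 872 by the nearest TSS. The share with Runx3 was 64.0% (2 kb gaps), 71.4% (no joining), 57.7% (3 kb) and 74.8% (5 kb). Runx3 density was 132 per Mb with 2 kb gaps, 175 without joining, 121 inside intervals, 136 with Runx3 peaks closer than 1 kb joined and 139 for peaks at least 1 kb from a TSS. The ratio to narrower domains turned to 0.963 with 2 kb gaps and to 0.868 with an overlap of 1 bp, which by construction adds more peaks per base to short domains. It was 1.28 with 500 bp gaps, 1.51 without joining, 1.06 inside intervals and 1.07 with joined Runx3 peaks. The share over a TSS was 25.8% (2 kb gaps), 25.4% (no joining), 19.0% (3 kb) and 5.34% with 1 TSS per protein-coding gene. The RUNX share was 96.1% in whole peaks. The ratio of gaps to intervals stayed between 2.35 and 2.52 for a 1 bp overlap, gaps of 200 bp or more, spans of 3 or 5 kb and peaks far from a TSS, and was 3.37 with 500 bp gaps, a setting chosen after seeing the data. Of 61 alternatives, 28 stayed within the interval of the value given or within 1.5 times a count, 31 did not and 2 changed direction. Except where the construction is named, the cause was not tested.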

Other observations

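TSSs of protein-coding genes were unevenly spread over the parts of the domains. The gaps held 18.4 per Mb (95% exact Poisson interval 11.7 to 27.6), the intervals 7.24 (5.26 to 9.72) and the flanks 27.9 (23.1 to 33.3). A Runx3 centre lay in 12 of the 65 gaps with an annotated TSS (18.5%, Wilson interval 10.9 to 29.6) and in 365 of the 3924 gaps without one (9.30%, 8.43 to 10.3). The gaps with a TSS were wider, with a median of 638 bp against 211 bp. The part of gap width in this difference was not tested.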
